A study of Mus musculus with 9 samples.

Results

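The mouse genes Casp1, Casp4, Casp12, Casp8, Cflar, Fadd, Ripk3 and Mlkl encode caspases and the proteins that hold or release necroptosis. The set is a list of names drawn up for their place in these pathways, with earlier results of these data known, and all 8 were found among the 56289 genes measured. RNA-seq was performed on cultures that the sample labels describe as RAW264.7, a macrophage-like line from the BALB/c strain. The Con group (3 libraries) was untreated, the TNF-α group (3 libraries) received 20 ng/ml of recombinant human TNF-α for 24 h, and the TNF-α+WBT group (3 libraries) received the same TNF-α together with 1.0 μg/ml of WBT for 24 h. WBT is Wang Bi tablet, a herbal preparation given in rheumatoid arthritis, and the sample labels write the drug as WBP. All 9 libraries came from the same line, and the doses are those of the study's methods. The study calls the 3 libraries of a group biological replicates. The labels do not say whether replicates were separate cultures, so p-values measure only the spread between these libraries.

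Caspases are cysteine proteases that cut proteins after aspartate. When TNF-α or Fas ligand engages its receptor, the adaptor FADD can recruit caspase-8, which starts apoptosis, and the product of Cflar, c-FLIP, competes with or tempers caspase-8 in that complex. Where caspase-8 is blocked, the kinase RIPK1 can act through the kinase RIPK3, which phosphorylates MLKL. MLKL then ruptures the plasma membrane, a death called necroptosis. Casp1, Casp4 and Casp12 belong to the inflammatory caspases. Caspase-1 matures interleukin 1β inside inflammasomes, the product of mouse Casp4, known in the literature as caspase-11, senses bacterial lipopolysaccharide in the cytosol, and both cleave gasdermin D to form pores in the membrane, while the role of caspase-12 is less settled.

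All levels are FPKM as the authors deposited them, that is, fragments scaled to transcript length and to the depth of the library. The depth, estimated from the smallest steps in the values, was 16902100 to 26161300 fragments per library. Markers went against the cell label. Of 12 macrophage genes, 1 lay above 1 FPKM in all 9 libraries, and 7 (Adgre1, Ctss, Cybb, Itgam, Ptprc, Spi1 and Tyrobp) had a value of 0 throughout. Of 12 fibroblast genes, 10 lay above 1 FPKM in all libraries, and of 12 Schwann cell genes, 9 did. The summed level of the macrophage genes was 5.87 to 7.23 FPKM in Con, 6.86 to 7.92 in TNF-α and 7.09 to 8.26 in TNF-α+WBT. That of the fibroblast genes was 4817 to 5081, 5183 to 5441 and 5100 to 5226 FPKM in the same order, and that of the Schwann cell genes was 940.0 to 1002, 766.5 to 828.8 and 834.5 to 862.2 FPKM. In the TNF-α against Con comparison 5 of the Schwann cell genes were called lower and none higher, by the rule given below. Of the fibroblast genes 2 were called higher and 2 lower. Over all tested genes 4.86% were called there in either direction and 2.94% higher, and 8.37% of genes whose mean reached 1 FPKM were called. The part of the cell makeup in the results that follow was not tested, and in bulk RNA fewer cells of a type and less RNA per cell cannot be told apart. The cultures are therefore called by their group names here.

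With TNF-α, Casp4 rose 3.45-fold, Casp8 1.33-fold and Mlkl 1.31-fold over Con, as ratios of the mean FPKM. No member was called lower, and Casp12, the most abundant of the 8 genes, had the lowest log2 fold change (-0.38), which did not pass the adjustment and was -0.10 when fragments were not divided by transcript length. Adding WBT to TNF-α gave no call in any of the 8 genes. Casp1 and Ripk3 held at most 3.0 estimated fragments in any library. The call rule was a Benjamini-Hochberg adjusted p under 0.05 in limma over the 25417 genes above 0 FPKM in at least 3 libraries, a filter that 7 of the 8 genes passed and Casp1 did not. Between TNF-α and Con 3 of the 8 genes were called, all higher, against 4.86% of all tested genes in either direction and 2.94% higher, and against 8.37% of the genes whose mean reached 1 FPKM. With WBT added to TNF-α, 0 of the 8 were called (0.00393% of all tested genes, 1 gene), and 0 had an unadjusted p under 0.05 in limma, where 6.31% of all tested genes did. Between TNF-α+WBT and Con 1 of the 8 was called, higher, against 3.71% of all tested genes in either direction and 2.31% higher. An unadjusted p under 0.05 in limma was found for 4 of the 8 genes in each comparison against Con, and for 16.1% (TNF-α) and 14.7% (TNF-α+WBT) of all tested genes. At the study's thresholds, a fold change over 2 with an unadjusted p under 0.05, the counts in the 3 comparisons (TNF-α against Con, TNF-α+WBT against TNF-α, TNF-α+WBT against Con) were 1, 0 and 1, the 1 being Casp4, where 2.42%, 1.12% and 2.29% of all tested genes passed. Over the 6 genes above 3 fragments the median log2 fold change was 0.24, -0.05 and 0.19 in these 3 comparisons, while over the genes whose mean reached 1 FPKM it was within 0.001 of 0. The 3 comparisons share libraries, so their values are given side by side and are not independent.

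**Figure D1:**
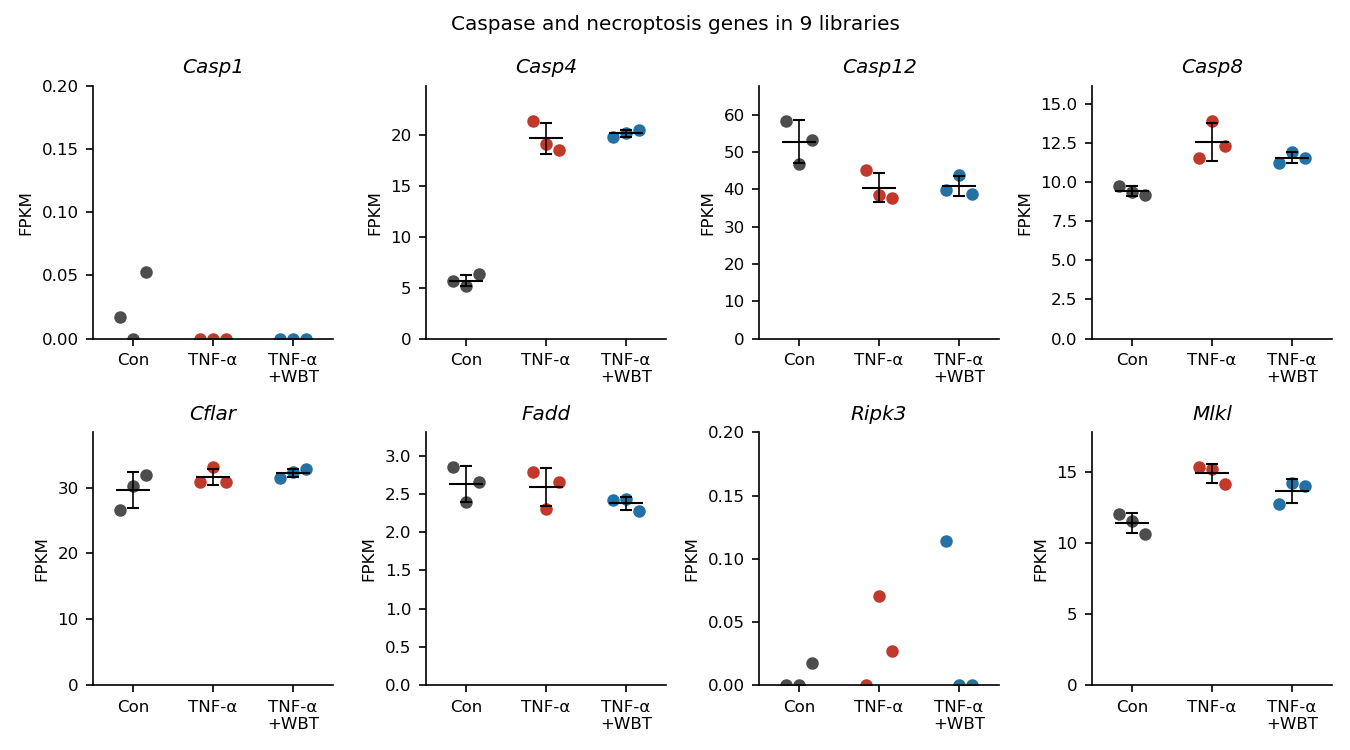
FPKM of the 8 genes in each of the 9 libraries (points), by group, with the mean and SD of 3 libraries (bars) for 6 of them, on a linear axis that starts at 0 and differs between panels. Casp4 stands at 5.16 to 6.30 FPKM in Con and at 18.5 to 21.4 FPKM in both groups with TNF-α, and Casp1 and Ripk3 stay at or below 0.114 FPKM.

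Casp4 (ENSMUSG00000033538, chr9:5308828-5336783, plus strand, positions from GENCODE M21 for GRCm38) stood at 5.63, 5.16 and 6.30 FPKM in Con, at 21.4, 19.1 and 18.5 FPKM with TNF-α and at 19.8, 20.2 and 20.5 FPKM with TNF-α+WBT. All 6 libraries with TNF-α lay far above the 3 Con libraries, and the ranges of the stimulated groups overlapped. The means of Con, TNF-α and TNF-α+WBT were 5.70 ± 0.572, 19.7 ± 1.54 and 20.2 ± 0.385 FPKM (SD, n = 3 each). On the log2(FPKM + 0.1) scale the difference between TNF-α and Con was 1.77 ± 0.08 (SE, adjusted p = 6.54e-06, limma), rank 37 of 25417 genes by p. The gene held 145.6 to 565.6 estimated fragments per library. It was called in this comparison under all 20 alternative settings, with a log2 fold change from 1.63 to 1.85.

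Casp12 (ENSMUSG00000025887, chr9:5345430-5373032, plus strand) stood at 58.4, 46.8 and 53.2 FPKM in Con, at 45.1, 38.6 and 37.8 FPKM with TNF-α and at 39.9, 43.9 and 38.9 FPKM with TNF-α+WBT. The direction was opposite to Casp4, and all Con libraries lay above all others, although the lowest Con library, at 46.8 FPKM, was close to the highest TNF-α library, at 45.1 FPKM. This separation rests on the division by transcript length. Counted as estimated fragments per 1000000, Casp12 stood at 98.8, 90.6 and 96.0 in Con, at 84.4, 92.9 and 89.6 with TNF-α and at 86.4, 92.3 and 90.9 with TNF-α+WBT. On that scale the groups overlapped, and the log2 difference between TNF-α and Con was -0.10 (adjusted p = 0.351, limma). The means were 52.8 ± 5.77, 40.5 ± 4.02 and 40.9 ± 2.64 FPKM (SD, n = 3 each). The log2 difference between TNF-α and Con was -0.38 ± 0.10 (SE, 95% interval -0.60 to -0.16, adjusted p = 0.0653, limma), so Casp12 was not called. It was called without Con replicate 2 (-0.46, adjusted p = 0.0355, limma), without TNF-α replicate 1 (-0.46, adjusted p = 0.0419, limma) and with the test limited to genes whose mean reached 1 FPKM (-0.38, adjusted p = 0.0375, limma).

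Casp1 (ENSMUSG00000025888, chr9:5298517-5307265, plus strand) was listed at 0.0173, 0 and 0.0523 FPKM in Con and at 0 in all 6 libraries with TNF-α. The largest of these values corresponds to 1.6 estimated fragments, at or under the 3 fragments that a count of 0 allows, so no fold change is given. A difference between groups at so low a level of Casp1 was not detectable at this depth.

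The 3 inflammatory caspase genes are neighbours. Casp1, Casp4 and Casp12 lie in this order on the same strand within 74.5 kb, with gaps of 1562 and 8646 bases and no other annotated gene between them. Their mean levels over the 9 libraries were 0.00773, 15.2 and 44.7 FPKM. The ratio of Casp4 to Casp12 within a library was 0.0965, 0.110 and 0.118 in Con, 0.475, 0.494 and 0.490 with TNF-α, and under TNF-α+WBT it was 0.496, 0.461 and 0.528. Casp4 was thus at most 0.118 of its neighbour without TNF-α and at least 0.461 of it in every stimulated library, a description with no test.

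The stretches before the transcription starts of the genes that rose with TNF-α and of Casp12, the neighbour that did not, are shown because NF-κB and interferon-activated factors are the textbook transducers of such stimuli. All 8 genes had an entry in the RefSeq promoter table for GRCm38.p6, which runs from 250 bases before to 50 after the start. Searched on both strands were the core of the interferon-stimulated response element, GAAANNGAAA, the gamma-activated site, TTCNNNGAA, and the NF-κB consensus of 10 bases. The 250 bases before the start are printed 5′ to 3′ on the gene's strand, with every match in capitals.
Casp4, chr9:5308599-5308848, plus strand: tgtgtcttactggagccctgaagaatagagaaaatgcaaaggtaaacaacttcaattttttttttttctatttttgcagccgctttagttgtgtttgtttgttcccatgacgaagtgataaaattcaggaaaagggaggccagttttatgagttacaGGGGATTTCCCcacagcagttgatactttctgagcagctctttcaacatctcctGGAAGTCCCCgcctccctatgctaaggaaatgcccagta
Casp12, chr9:5345226-5345475, plus strand: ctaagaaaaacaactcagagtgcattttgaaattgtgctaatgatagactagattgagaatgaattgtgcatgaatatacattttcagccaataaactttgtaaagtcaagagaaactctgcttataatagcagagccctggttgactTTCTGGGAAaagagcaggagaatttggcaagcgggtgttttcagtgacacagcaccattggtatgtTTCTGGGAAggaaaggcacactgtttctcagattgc
Casp8, chr1:58802252-58802501, plus strand: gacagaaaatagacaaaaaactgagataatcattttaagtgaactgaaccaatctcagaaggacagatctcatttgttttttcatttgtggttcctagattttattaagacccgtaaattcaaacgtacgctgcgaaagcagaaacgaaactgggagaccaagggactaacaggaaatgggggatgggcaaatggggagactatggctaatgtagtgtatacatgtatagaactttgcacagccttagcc
Mlkl, chr8:111338206-111338455, minus strand: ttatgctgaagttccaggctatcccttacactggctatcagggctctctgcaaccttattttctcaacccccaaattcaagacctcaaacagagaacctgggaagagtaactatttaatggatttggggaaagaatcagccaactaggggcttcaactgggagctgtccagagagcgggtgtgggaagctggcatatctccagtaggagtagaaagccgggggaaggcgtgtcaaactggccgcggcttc
Casp4 was the only one of the 8 genes with a match to the NF-κB consensus, which 8.46% of all 32851 promoter windows hold. Its matches form 2 separate stretches, of which the first, GGGGATTTCCC, holds overlapping matches on both strands, 93 to 83 bases before the start, and the second, GGAAGTCCCC, lies 39 to 30 bases before it. A further RefSeq start of Casp4, 11 bases downstream, holds the same stretches. Casp12 held 2 copies of TTCTGGGAA, matches to the gamma-activated site, which 8.30% of windows hold. Cflar held 1 match to the response element core, which 3.44% of windows hold, 6 to 15 bases after its start. The windows of Casp1, Casp8, Fadd, Ripk3 and Mlkl held none of the 3 motifs. A match is a run of letters and not a measured binding site, and the RefSeq start of Casp8 lies inside the GENCODE gene, downstream of its first annotated base.

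Transcript values, which divide the fragments of a gene between overlapping models, were read next. The 8 genes had 32 transcripts above 0 FPKM in at least 3 libraries. Of these, 9 had groups that did not overlap between TNF-α and Con, 10 did between TNF-α+WBT and Con, and 5 did between the stimulated groups, where 14.2%, 13.4% and 9.89% of all 80149 such transcripts did. No transcript was tested.

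The main coding transcript of Casp4, Casp4-201 (1435 bases), stood at 3.56, 3.25 and 3.23 FPKM in Con, 11.2, 11.1 and 11.9 FPKM with TNF-α and 10.3, 9.48 and 9.76 FPKM with TNF-α+WBT. It was lower in every TNF-α+WBT library than in every TNF-α library, while the gene as a whole was not. The counterpart was Casp4-203 (871 bases), annotated as a target of nonsense-mediated decay, at 0.339, 0.327 and 0.361 FPKM in Con, 1.80, 1.67 and 1.01 FPKM with TNF-α and 3.39, 4.20 and 5.29 FPKM with TNF-α+WBT. Its share of the gene was 5.74 to 6.34% in Con, 5.47 to 8.74% with TNF-α and 17.1 to 25.8% with TNF-α+WBT, so that the WBT libraries stood apart from both other groups. It held 16.7 to 33.0 estimated fragments per library with TNF-α and 54.3 to 77.9 with TNF-α+WBT. This transcript was singled out after its values were seen.

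In Casp12 single transcripts did not all lie the same way as the total. The full-length coding transcript Casp12-201 (2649 bases) stood at 12.7, 17.7 and 17.6 FPKM in Con, 15.0, 31.0 and 29.2 FPKM with TNF-α and 25.3, 25.7 and 29.4 FPKM with TNF-α+WBT. It was higher in all TNF-α+WBT libraries than in Con, and TNF-α replicate 1 stayed among the Con libraries. The shorter coding transcript Casp12-204 (1065 bases) stood at 20.5, 6.06 and 14.0 FPKM in Con, 8.04, 1.22 and 1.21 FPKM with TNF-α and 4.75, 7.20 and 2.05 FPKM with TNF-α+WBT. Casp12-205, annotated for nonsense-mediated decay, stood at 7.21, 4.06 and 3.67 FPKM in Con, at 4.49, 0.207 and 0.275 FPKM with TNF-α and at 0.351, 0.599 and 0.176 FPKM with TNF-α+WBT. Here too TNF-α replicate 1 lay among the Con libraries, and the other 5 libraries with TNF-α were low. The share of Casp12 in coding transcripts was 50.7 to 59.4% in Con, 51.1% in TNF-α replicate 1, 80.4 and 83.4% in the other TNF-α libraries and 75.1 to 80.9% with TNF-α+WBT. The transcript makeup of Casp12 in TNF-α replicate 1 thus went with Con, while its gene total lay just below the Con range. Summed over both coding transcripts, Casp12 was 33.2, 23.7 and 31.6 FPKM in Con and 23.1, 32.2 and 30.4 FPKM with TNF-α, which overlap.

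**Figure D2:**
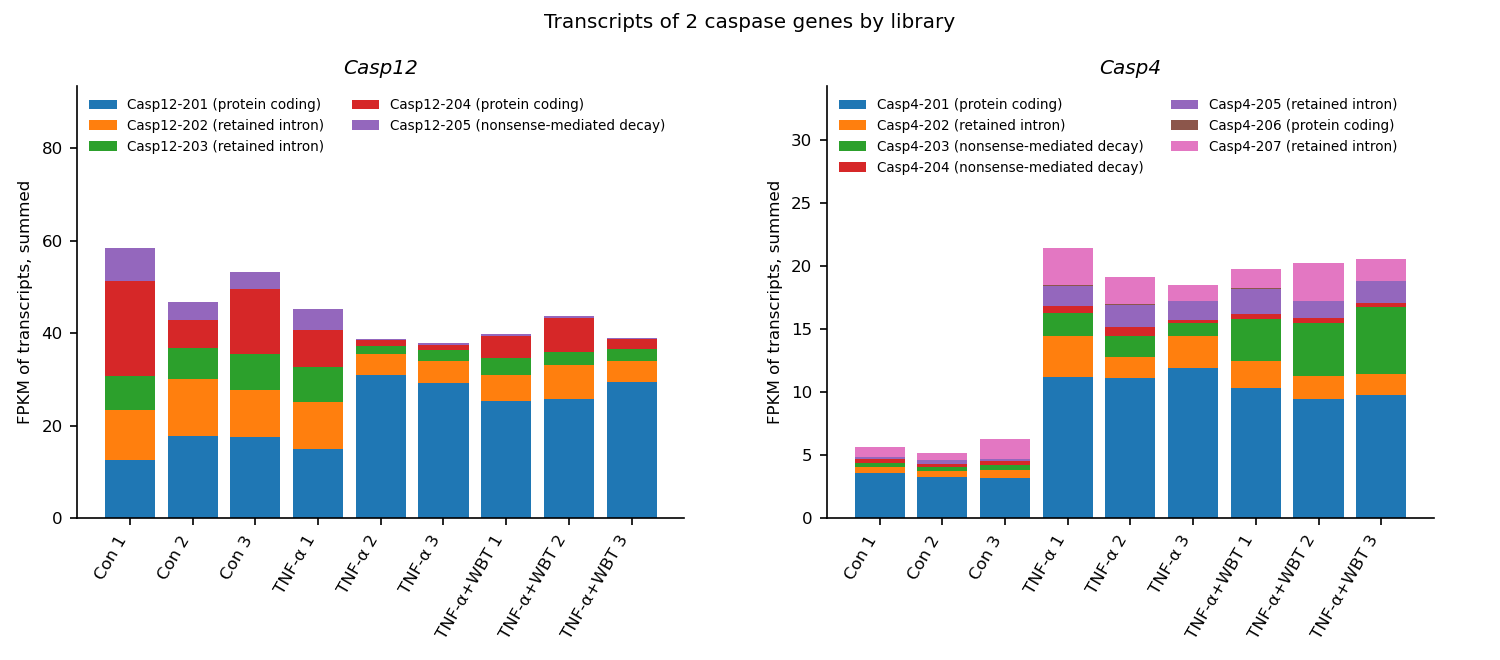
FPKM of each annotated transcript of Casp12 (left) and Casp4 (right), stacked, in each of the 9 libraries, with the annotated transcript type in the legend. The share of Casp12-201 is 21.7 to 37.8% in Con and TNF-α replicate 1 and 58.7 to 80.2% in the other 5 libraries, and the share of Casp4-203 is 17.1 to 25.8% in the 3 TNF-α+WBT libraries.

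Casp8 (ENSMUSG00000026029, chr1:58795374-58847503, plus strand), the initiator caspase of death receptors, stood at 9.77, 9.34 and 9.14 FPKM in Con, at 11.5, 13.9 and 12.3 FPKM with TNF-α and at 11.2, 11.9 and 11.5 FPKM with TNF-α+WBT. Every library with TNF-α lay above every Con library. The means were 9.42 ± 0.323, 12.6 ± 1.20 and 11.5 ± 0.343 FPKM (SD, n = 3 each), and the log2 difference between TNF-α and Con was 0.41 ± 0.07 (SE, adjusted p = 0.0129, limma). Without Con replicate 3 it was 0.39 and missed the threshold (adjusted p = 0.0547, limma). Nearly all of the gene was Casp8-201, which made up 81.9 to 100.0% of its value in the 9 libraries.

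Cflar (ENSMUSG00000026031, chr1:58711508-58758884, plus strand), which lies 36489 bases upstream of Casp8 on the same strand, stood at 26.6, 30.2 and 32.0 FPKM in Con, at 30.9, 33.1 and 30.9 FPKM with TNF-α and at 31.5, 32.4 and 32.8 FPKM with TNF-α+WBT. Its groups overlapped. The log2 difference between TNF-α and Con was 0.10 ± 0.07 (SE, 95% interval -0.05 to 0.25, adjusted p = 0.552, limma). Its longest coding model, Cflar-205 (6572 bases), held 19.8 to 25.0 FPKM in the 9 libraries. The ratio of Cflar to Casp8, the inhibitor against its protease, was 2.72, 3.24 and 3.50 in Con, 2.68, 2.38 and 2.51 with TNF-α, and under TNF-α+WBT it was 2.81, 2.72 and 2.86. In FPKM the ratio was lower in all TNF-α libraries than in all Con libraries, narrowly so at 2.68 against 2.72. The TNF-α+WBT libraries fell within the Con range, and the ratio was not tested. In estimated fragments, not divided by length, neither pattern held. Con replicate 1 held 3713.3 fragments of Cflar and 650.0 of Casp8. TNF-α replicate 1 held 3519.2 and 596.5, a higher ratio. TNF-α+WBT replicate 2 held 3474.8 and 611.1, a ratio just below that of Con replicate 1, the lowest in Con.

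Fadd (ENSMUSG00000031077, chr7:144577318-144582463, minus strand), the adaptor, stood at 2.85, 2.39 and 2.66 FPKM in Con, at 2.79, 2.31 and 2.66 FPKM with TNF-α and at 2.42, 2.44 and 2.28 FPKM with TNF-α+WBT. The groups overlapped in all 3 comparisons. The log2 difference between TNF-α and Con was -0.02 ± 0.11 (SE, 95% interval -0.29 to 0.24, adjusted p = 0.959, limma). Fadd was the lowest of the 6 genes above 3 fragments in every group, and its 150.7 to 291.1 estimated fragments per library are enough to measure it.

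Mlkl (ENSMUSG00000012519, chr8:111311797-111338177, minus strand), the executioner of necroptosis, stood at 12.0, 11.5 and 10.6 FPKM in Con, at 15.3, 15.2 and 14.1 FPKM with TNF-α and at 12.7, 14.2 and 14.0 FPKM with TNF-α+WBT. Both stimulated groups lay wholly above Con. The means were 11.4 ± 0.689, 14.9 ± 0.676 and 13.6 ± 0.788 FPKM (SD, n = 3 each), and the log2 difference between TNF-α and Con was 0.39 ± 0.07 (SE, adjusted p = 0.0119, limma). Without TNF-α replicate 2 it was 0.37 and missed the threshold (adjusted p = 0.0512, limma). The minor coding transcript Mlkl-201 stood at 0.516, 0.425 and 0.752 FPKM in Con, 1.43, 2.77 and 1.65 FPKM with TNF-α and 0.884, 0.514 and 0.981 FPKM with TNF-α+WBT. Its TNF-α libraries lay above both other groups, whose ranges overlapped. Mlkl-201 was singled out after its values were seen. The main transcript Mlkl-202, which held 66.3 to 94.3% of the gene, did not share this pattern. It stood at 11.3, 10.6 and 8.75 FPKM in Con and 13.0, 10.1 and 11.3 FPKM with TNF-α, which overlap. With TNF-α+WBT it stood at 11.3, 13.2 and 12.8 FPKM. Mlkl-203, not annotated as coding, had means of 0.570, 1.41 and 0.398 FPKM in Con, TNF-α and TNF-α+WBT.

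Ripk3 (ENSMUSG00000022221, chr14:55784995-55788865, minus strand), the kinase that activates MLKL, was listed at 0, 0 and 0.0178 FPKM in Con, at 0, 0.0703 and 0.0270 FPKM with TNF-α and at 0.114, 0 and 0 FPKM with TNF-α+WBT. No library held more than 3.0 estimated fragments, so no fold change is given and a difference at so low a level was not detectable. The RNA of MLKL was thus present at over 10 FPKM in every library, while that of its kinase was at or under the limit that a count of 0 allows in all 9. Of the other genes that overlap a member in the annotation, Gm37760 (in Casp8), Faddos (antisense to Fadd) and Gm45712 (antisense to Mlkl) were at most 0.121, 0.127 and 0.377 FPKM, and whether the counting used strand is not given in the sources used here.

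To ask whether WBT moves these genes back, TNF-α+WBT was compared with TNF-α, and the log2 differences were 0.04 for Casp4 (95% interval -0.15 to 0.22), 0.01 for Casp12 (-0.20 to 0.23) and 0.03 for Cflar (-0.12 to 0.18). They were -0.12 for Casp8 (-0.28 to 0.05), -0.12 for Mlkl (-0.27 to 0.03) and -0.11 for Fadd (-0.37 to 0.15), with adjusted p-values in limma from 0.824 to 0.998 over the 6 genes. In none of the 8 genes were the groups apart, where 11.0% of all tested genes had groups that did not overlap. The intervals leave room for a decrease of Casp8 to 0.823 of its TNF-α level and of Mlkl to 0.827. For Casp4 the interval spans 0.903-fold to 1.17-fold, which is narrow beside its 3.45-fold rise with TNF-α.

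Against Con, the TNF-α+WBT group had Casp4 higher by 1.81 ± 0.08 on the log2 scale (SE, adjusted p = 8.93e-06, limma). Casp8, at 0.29 (95% interval 0.13 to 0.45, adjusted p = 0.0694, limma), and Mlkl, at 0.26 (0.11 to 0.41, adjusted p = 0.0766, limma), did not pass, although their groups did not overlap. Casp12 was at -0.36 (-0.58 to -0.15, adjusted p = 0.0878, limma), again without overlap. Groups did not overlap in 4 of the 8 genes here, 3 higher and 1 lower, where 19.5% of all tested genes did not overlap (10.2% higher and 9.25% lower). Between TNF-α and Con the same number did not, again 3 higher and 1 lower, against 21.2% of all tested genes (11.1% higher and 10.2% lower). A call of Casp8 and Mlkl against Con with TNF-α and none with TNF-α+WBT does not show a WBT effect, since the direct comparison of the stimulated groups, above, gave no call. An exact permutation test of 3 libraries against 3 cannot give a two-sided p under 0.1.

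**Figure D3:**
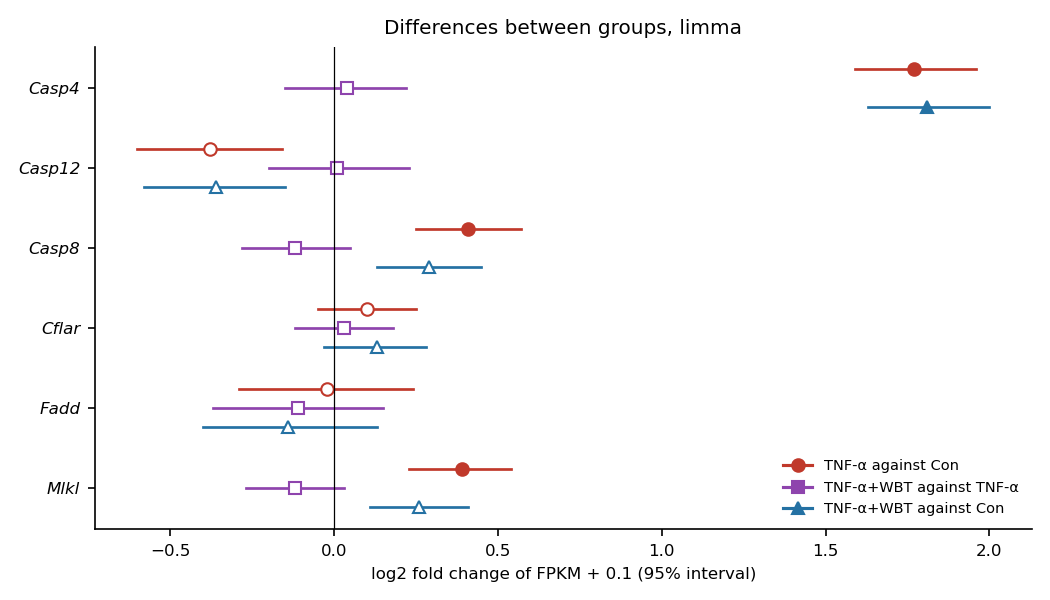
Log2 fold changes (points) with 95% intervals (lines) of the 6 measured genes in the 3 comparisons, on the log2(FPKM + 0.1) scale; filled points have an adjusted p under 0.05 in limma. Casp4 lies at 1.77 and 1.81 against Con and at 0.04 between the stimulated groups.

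The order of the levels, in FPKM, was Casp12, Cflar, Mlkl, Casp8, Casp4 and Fadd in Con. In both stimulated groups it was Casp12, Cflar, Casp4, Mlkl, Casp8 and Fadd, so that Casp4 passed Mlkl and Casp8. No neighbours in these orders overlapped within a group, apart from Casp1 and Ripk3, which stood last and did not differ beyond their spread. Casp8 was 1.45 to 1.81 times Casp4 in Con, and 0.538 to 0.727 times with TNF-α.

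The genes whose pattern over the 9 libraries was most like that of Casp4, among 12675 genes whose mean reached 1 FPKM, were Psme4 (Pearson r = 0.997), Tob1 (0.996) and Pstpip2 (0.995). For Casp8 they were Gm20559 (0.973) and Ctsl (0.965), and for Mlkl C1rb (0.969), Slc41a3 (0.967) and Zfp36l2 (0.967). Casp12 was most like Snx24 (0.958), Mycbp2 (0.949) and Crkl (0.944). Cflar was most like Gm22573 (0.938), Bap1 (0.937) and Nisch (0.934), and Fadd was most like Ybx1 (0.939), Nek4 (0.917) and Nnt (0.917). These are descriptions over 9 libraries that share their 3 groups, and each was picked as the highest of 12675 values.

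The pathway around the 8 genes was read from 5 lists. The counts of higher and lower genes in them are calls between TNF-α and Con. In that comparison 4.86% of all tested genes were called, and 8.37% of the genes whose mean reached 1 FPKM. A single call in a list this short is therefore not a result about the list. Of 8 death receptors and their ligands, 2 were higher and 2 lower with TNF-α than in Con. Fas, the receptor of Fas ligand, rose from 1.25, 0.998 and 1.25 FPKM in Con to 5.49, 5.96 and 6.62 FPKM with TNF-α, and stood at 6.61, 6.03 and 4.60 FPKM with TNF-α+WBT. Its log2 difference between TNF-α and Con was 2.28 ± 0.15 (SE, adjusted p = 6.42e-05, limma), larger than that of any of the 8 genes. Tnfrsf10b, the TRAIL receptor, rose from 4.90 to 6.68 FPKM in the mean, while Tnfrsf21 fell from 24.4 to 20.5 FPKM and Tnfrsf25 from 9.03 to 6.04 FPKM. Tnfrsf1a, the receptor that binds TNF-α on most cells, was at 36.0, 36.7 and 36.1 FPKM in Con, at 34.7, 56.1 and 56.8 FPKM with TNF-α and at 32.2, 37.7 and 31.2 FPKM with TNF-α+WBT. TNF-α replicate 1 lay near the Con libraries, and the gene was not called (adjusted p = 0.299, limma). In estimated fragments per 1000000, not divided by length, the TNF-α libraries of Tnfrsf1a were alike, at 72.3, 72.7 and 70.4, below the 76.1, 78.1 and 76.1 of Con. The higher FPKM of replicates 2 and 3 was thus not matched by more fragments. Tnf itself was listed at 0 in all 9 libraries, and Fasl held at most 2.0 estimated fragments in any of them.

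Of 18 genes of the TNF receptor complex and its checkpoints, 4 were higher and none lower. Tnfaip3, which encodes the ubiquitin-editing brake A20, rose 3.17-fold in the mean (adjusted p = 0.00681, limma), Traf2 1.53-fold, Birc2, the gene of cIAP1, 1.33-fold and Chuk 1.11-fold. Chuk passed only narrowly (adjusted p = 0.0497, limma), and in estimated fragments not divided by length its groups overlapped. Con replicate 2 held 1177.7 of 21618450 fragments, and TNF-α replicate 1 held 1134.3 of 21071600, a lower share. Tradd (10.4 to 11.6 FPKM in the mean) and Ripk1, the kinase upstream of RIPK3 (7.25 to 8.01 FPKM), were not called (adjusted p = 0.363 and 0.734, limma), and Birc3 reached no more than 0.351 FPKM. Casp9, the caspase of the apoptosome, stood at 4.18 FPKM in Con and 3.97 FPKM with TNF-α in the mean and was not called (adjusted p = 0.876, limma).

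Of 9 necroptosis partners, 1 was higher with TNF-α. Zbp1, the nucleic acid sensor that can engage RIPK3, stood at 1.29, 1.35 and 1.24 FPKM in Con, 3.46, 3.15 and 2.39 FPKM with TNF-α and 2.62, 4.52 and 2.93 FPKM with TNF-α+WBT (1.14 ± 0.21 between TNF-α and Con on the log2 scale, SE, adjusted p = 0.0185, limma). Of 14 inflammasome and pyroptosis genes, 1 was higher. It was Gsdmd, the gene of gasdermin D, the substrate of the Casp4 product, which rose from 4.87 to 7.52 FPKM in the mean and stood at 8.10 FPKM with TNF-α+WBT (0.62 ± 0.07 between TNF-α and Con, SE, adjusted p = 0.00139, limma). The inflammasome genes Nlrp3 and Pycard reached at most 0.0960 and 0.158 FPKM in any library, Il1b was listed at 0 in all 9, and Il18 was at 12.9 to 22.0 FPKM and was not called (adjusted p = 0.888, limma). Of 8 apoptosome and inhibitor genes, 1 was higher, Bid, which encodes the substrate that links caspase-8 to mitochondria, at 33.4 FPKM in Con and 46.7 FPKM with TNF-α (0.48 ± 0.04, SE, adjusted p = 0.000183, limma).

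Over the genes of each list above 3 fragments, the median log2 fold change between TNF-α and Con was 0.23 for the death receptors, 0.15 for the receptor complex, 0.04 for the necroptosis partners, -0.0007 for the inflammasome genes and 0.11 for the apoptosome genes, with all tested genes at 0.003. No gene of the 5 lists was called in limma between the stimulated groups. An unadjusted p under 0.05 in limma was found there for 1 of 6 tested death receptor genes and 3 of 18 receptor complex genes. It was found for 1 of 9 necroptosis, 1 of 12 inflammasome and 0 of 8 apoptosome genes, against 6.31% of all tested genes. Between TNF-α+WBT and Con the calls in the lists were Fas, Tnfrsf10b, Traf2, Tnfaip3, Zbp1, Gsdmd and Bid, all higher, and Tnfrsf21 and Tnfrsf25, both lower.

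**Figure D4:**
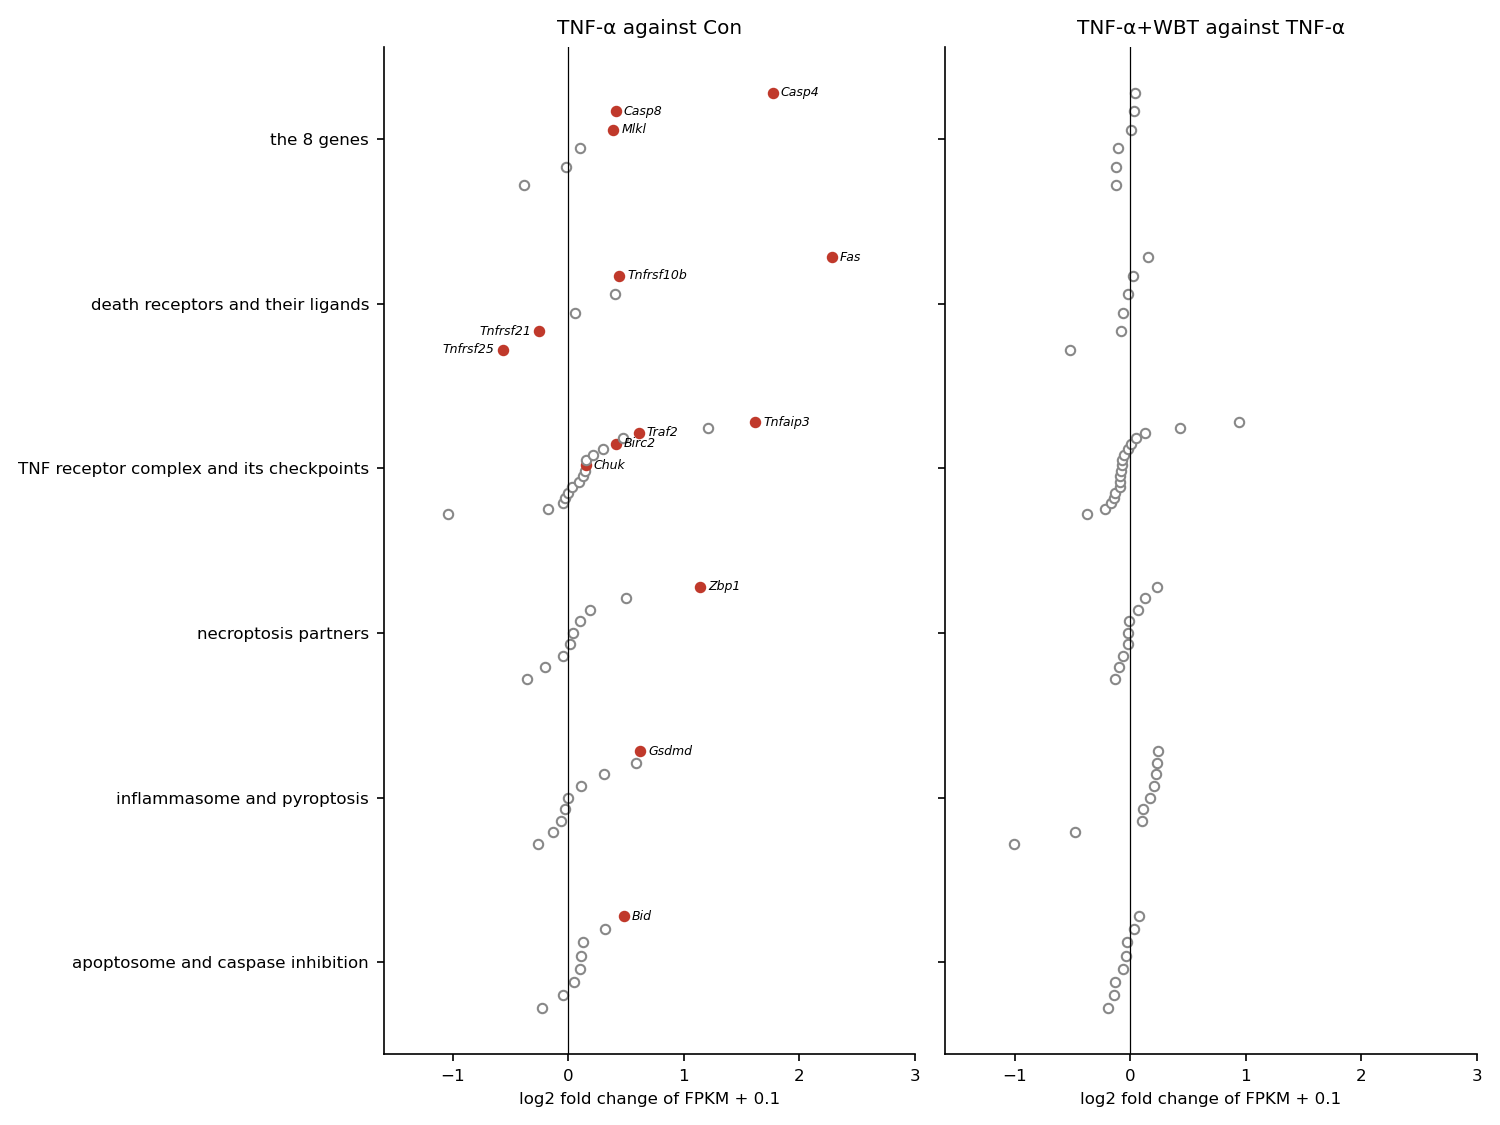
Log2 fold change of every tested gene with more than 3 estimated fragments in any library, by list, for TNF-α against Con (left) and TNF-α+WBT against TNF-α (right). Filled, named points have an adjusted p under 0.05 in limma; Fas lies at 2.28 and Casp4 at 1.77 on the left, and no point is filled on the right.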

How the data were processed

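RNA was sequenced as paired-end poly(A) libraries for 3 Con, 3 TNF-α and 3 TNF-α+WBT samples. The authors deposited FPKM per gene and per transcript, and the study's flow chart names HISAT2, StringTie and Ballgown, with versions and genome build not given in the sources used here. Of the 56289 genes, 98.0% had a symbol in GENCODE M21 for GRCm38, and in 54845 of 55230 genes the sum over transcripts differed from the gene's value by at most 0.0001 FPKM. Depth is not stated in FPKM and was estimated from whole-fragment steps in 10717 genes. In each library 50.5 to 56.1% of low values came within 0.1 of whole fragments, where chance gives 20.0% at a depth fixed beforehand. The depth was chosen to bring these same values closest to whole fragments, so the share is not an independent check of it. Fragment numbers are thus approximate, and no count model was run. A count of 0 allows up to 3 fragments, which covers counting error alone.

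The test used log2(FPKM + 0.1) of all genes with 3 or more libraries above 0, a scale that understates changes of low genes, in limma 3.58.1 (R 4.3.3), intensity trend and 1 model over all 9 libraries, tested on simulated data first. Python 3.11.15, pandas 2.3.3, numpy 2.4.6 and matplotlib 3.10.9 were used. All 8 genes were named. From each pathway list the genes named were those called in any comparison (at most 5 per list and comparison) and a fixed set of key genes, and the 3 genes most like each member, and some genes this rule picks are not reported here. The members and lists were chosen with earlier results of these data known. Alternatives covered the pseudocount, filter, trend, model, centring, quantile normalization, transcript sums, replicate block and each library left out. Estimated fragments per 1000000, not divided by length, were added after seeing the data. Protein sequences were not used here.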

Additional observations from a re-analysis of the deposited data

How the results depend on the processing

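Each log2 fold change of the 6 measured genes was recomputed in the 3 comparisons under 20 alternative settings, 360 values in all. In 343 the direction and the side of the threshold stayed, in 7 a difference became called, in 2 a call was lost, and in 8 a difference that was not called changed sign. All 17 came from leaving out a library, from testing only genes whose mean reached 1 FPKM or from fragments not divided by length. The sign changes were in values near 0. With a library left out, Fadd between TNF-α and Con ran from -0.09 to 0.05, Casp12 in the WBT against TNF-α comparison from -0.04 to 0.09, and Casp4 there from -0.0038 to 0.10. With estimated fragments per 1000000 not divided by length, an alternative chosen after seeing the data, Casp4 was at -0.06 and Cflar at -0.02 in that comparison, and Casp12 was at -0.10 between TNF-α and Con and -0.08 between TNF-α+WBT and Con, while Casp4, Casp8 and Mlkl were called between TNF-α and Con (1.75, 0.40 and 0.34). The count of 3 calls among the 8 genes between TNF-α and Con ran from 2 to 4 with a library left out. Between TNF-α+WBT and Con the count of 1 became 3 with the test limited to a mean of at least 1 FPKM, where Casp8 (0.29, adjusted p = 0.0428, limma) and Mlkl (0.26, adjusted p = 0.049, limma) were called as well and fewer genes were tested. It ran from 1 to 2 with a library left out, where Casp12 without Con replicate 2 (-0.45, adjusted p = 0.0479, limma) and Casp8 without TNF-α replicate 2 (0.29, adjusted p = 0.0333, limma) were called. Over all settings the adjusted p in limma ran from 0.00737 to 0.0547 for Casp8 and from 0.0069 to 0.0512 for Mlkl between TNF-α and Con, and from 0.0355 to 0.351 for Casp12. With WBT added to TNF-α none of the 8 genes was called under any setting. Over all tested genes the 1 call of that comparison became 11 with a pseudocount of 0.01, 7 without the trend, 2 in a model of only the 2 groups, 2 with transcript sums, 4 with fragments per 1000000, 0 with the replicate block and 0 to 10 with a library left out. The calls between TNF-α and Con ran from 823 to 1111 with a library left out, and those between TNF-α+WBT and Con from 579 to 826. The study's thresholds gave 128, 8 and 105 genes in the 3 comparisons with a pseudocount of 1, 1057, 639 and 1040 with 0.01, and 207, 14 and 167 with a mean of at least 1 FPKM, against 615, 284 and 583, and Casp4 alone of the 8 genes passed against Con each time. The cause of these shifts was not tested. Deviations of libraries with the same replicate number correlated at -0.067 to 0.095, so the numbers were not taken to pair the libraries, and the replicate block changed no call among the 8 genes. It gave 893 calls over all genes between TNF-α and Con and 701 between TNF-α+WBT and Con. Depth limits Casp1 and Ripk3, whose levels were too low to compare between groups, and the transcript values, which carry the error of dividing fragments between models.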

Other observations

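Some genes of the pathway lists differed by more than 2-fold between libraries of 1 group, and these were picked after their values were seen. Nek7, which binds NLRP3, stood at 7.56, 22.0 and 7.38 FPKM with TNF-α+WBT and above 20 FPKM in the other 6. Xiap, an inhibitor of caspases, stood at 5.25, 12.6 and 5.06 FPKM with TNF-α, and Map3k7, the kinase TAK1, at 9.22, 20.1 and 19.9 FPKM in Con. Ikbkg, the NEMO subunit, stood at 12.6, 13.4 and 4.61 FPKM with TNF-α and at 17.5, 15.5 and 7.13 FPKM with TNF-α+WBT. None of these 4 genes was called in any of the 3 comparisons in limma.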
